A study of Rattus norvegicus with 2 samples.

Results

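Genes for the ciliary axoneme and for transport inside cilia were measured on 2 Affymetrix Rat Genome 230 2.0 arrays of rat lung RNA, 1 array per experimenter. The members were the non-control probe sets whose platform annotation gives 1 gene symbol beginning with Dnah, Dnai, Dnal, Ift, Rsph, Tekt, Bbs, Spag, Cfap, Ropn1 or Tppp followed by a digit. There were 88 such probe sets of 31042, for 68 genes of 14217. They were divided by name into 38 axonemal genes (45 probe sets), 24 transport genes (34 probe sets) and 6 other genes (9 probe sets). The axonemal class takes every Cfap name, also *Cfap36*, *Cfap410* and *Cfap418*, which are known from other parts of the cilium. No Ropn1 name followed by a digit was present, and 2 probe sets with a Dnal name carried several symbols and were not members.

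Both samples were total RNA of rat lung from *Rattus norvegicus*, purified on silica columns and labelled with biotin, and they differed in the labels only by experimenter. No treatment, genotype, strain, age or sex is given in the labels, nor whether both used 1 lung or different ones. The 2 arrays are named the arrays of experimenters 1 and 2, following the numbering in the array titles. With 1 array each there is no replicate error, so no p-value is given and no gene can be called changed. A value is a log2 RMA value (robust multi-array average, made by the authors), and a difference is experimenter 2 minus experimenter 1 on that scale. In whole lung RNA, fewer ciliated cells and less RNA per cell cannot be told apart.

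A motile cilium is built on a cylinder of microtubule doublets, the axoneme. Dynein arms make the doublets slide, radial spokes and the central apparatus regulate the arms, and tektins and many Cfap proteins line the inside of the doublets. Cilia are assembled by intraflagellar transport (IFT): the IFT-B complex moves cargo to the tip with kinesin, the IFT-A complex returns it with cytoplasmic dynein, and the BBSome, an adaptor of Bbs proteins, carries membrane proteins. In the lung, motile cilia belong to the ciliated cells of the airways, whereas transport proteins also serve the primary cilia of many other cell types.

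RFX transcription factors, regulators of both motile and primary cilium genes, bind the X-box, searched here in a relaxed form, GTNNCC followed after 3 bases by GNAAC. The RefSeq promoter table of rat assembly GRCr8, which holds windows from 250 bases before to 50 bases after annotated starts, matched 56 of the 68 member genes. An X-box match on either strand was found in 8 of these 56 genes (14.3%), against 2.18% of the 11700 genes on the array that had a window. By class it was found in 5 of 32 axonemal genes, 2 of 20 transport genes and 1 of 4 others. No window was matched for *Cfap107*, *Cfap410*, *Cfap418*, *Ift25*, *Ift57*, *Ift74*, *Ift80*, *Rsph1*, *Spag11a*, *Spag16*, *Tekt5* and *Tppp3*. The axonemal matches are shown because this site is the known binding sequence of regulators of cilium genes. Capitals mark the match and each sequence is written along the gene's strand.
Dnah2: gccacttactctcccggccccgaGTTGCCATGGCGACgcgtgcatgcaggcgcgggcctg
Cfap298: gggtttcgGTTGCCCGGGCAACagctactt
Cfap20dc: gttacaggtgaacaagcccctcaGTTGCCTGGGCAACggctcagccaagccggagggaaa
Cfap45: gggtcttgGTTGCTGTGGTAACgcgtcagc
Tekt4: tatacaatGTTCCTGAGGCAACcaggagcc

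The *Dnah2* stretch is chr10:54766035-54766094 on the minus strand, and its match begins 45 bases before the annotated start. *Cfap298* (chr11:43677592-43677621, minus strand) has a match that reads the same on both strands, 231 bases before the start. *Cfap20dc* (chr15:18661361-18661420, plus strand) has its match 178 bases before the start. The genes *Cfap45* (chr13:87521810-87521839) and *Tekt4* (chr10:14992263-14992292), both on the plus strand, have matches that begin 13 bases before the start. In *Cfap45*, *Tekt4* and *Dnah2* the letters fit the motif only when read on the strand opposite to the gene. The transport genes with a match are shown for comparison.
Ift22: tgttcccgGTCGCCGTGGAAACcgatcagc
Ift140: tacgcacgGTCGCCCAGGGAACcctagctg

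*Ift22* lies at chr12:25405496-25405525 on the minus strand with its match 7 bases before the start, and *Ift140* at chr10:14537461-14537490 on the plus strand with its match from base 4 after the start. The gene outside both classes with a match was *Spag5*, which encodes a spindle protein.

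The shorter core of the X-box, GTTGCC, was more frequent. It was present in 12 of 32 axonemal genes (37.5%) and 7 of 20 transport genes (35.0%), against 13.0% of genes on the array. Genes with several annotated starts have several windows, 44 for the 32 axonemal genes, 20 for the 20 transport genes and 13192 for the 11700 genes on the array. Per window the core was found in 27.3%, 35.0% and 12.1%, and the full X-box in 5 of 44 windows, 2 of 20 windows and 2.02% of windows, in the same order. In 4 of the 20 member genes with this core, at least 1 copy lay inside a full X-box match. The 4 stretches below belong to the brightest axonemal gene (*Cfap144*), the brightest transport gene (*Ift20*), the transport gene with the largest difference (*Ift81*) and the brightest tektin (*Tekt2*). Capitals mark the core on either strand, where it reads GTTGCC or GGCAAC.
Cfap144: cgaggaacacccGTTGCCtggaaacagtag
Tekt2: gggcggttgctaGGCAACcagagccacaaa
Ift81: acatcactgcatGGCAACcGTTGCCaagga
Ift20: tatttctctcgtGTTGCCtctatttcccag

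These are chr10:44019285-44019314 (minus strand) for *Cfap144*, chr5:143907736-143907765 (minus strand) for *Tekt2*, chr12:39618599-39618628 (plus strand) for *Ift81* and chr10:63930672-63930701 (plus strand) for *Ift20*. The cores shown begin 21, 29 and 11 bases before the start of *Cfap144*, *Tekt2* and *Ift81* and at base 4 after the start of *Ift20*. Not shown are further cores of *Cfap144*, 220 and 70 bases before the start, and of *Tekt2*, from base 11 after the start. In *Ift81* the core stands on both strands within 1 stretch. A forkhead sequence, GTAAACA, of the kind bound by the ciliated cell regulator *Foxj1*, was found in 2 of 32 axonemal genes (*Cfap20* and *Tekt3*) and 0 of 20 transport genes, against 2.71% of genes on the array. The windows of axonemal and transport genes had a median GC content of 55.8% and 56.7%, and those of genes on the array 59.7%. A match describes letters in these windows and is not a measured binding site. The motifs were settled on with matches in view.

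With each gene taken by its brightest probe set, the axonemal genes had medians of 6.83 and 6.71 on the arrays of experimenters 1 and 2 and the transport genes 7.43 and 7.65, beside 7.59 and 7.57 for all 14217 genes. The medians over all probe sets were 6.32 and 6.28. The median of all probe sets in their mean over both arrays (6.31) was reached or passed by 25 of 38 axonemal genes (65.8%) and by 20 of 24 transport genes (83.3%), against 67.2% of all genes. Axonemal genes spanned a wider range, from a mean of 3.82 to 10.33, than transport genes, from 5.21 to 9.94. These levels are probe set values with no correction for how well each probe set hybridizes, so they place a probe set within its array and do not rank transcripts.

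**Figure D1:**
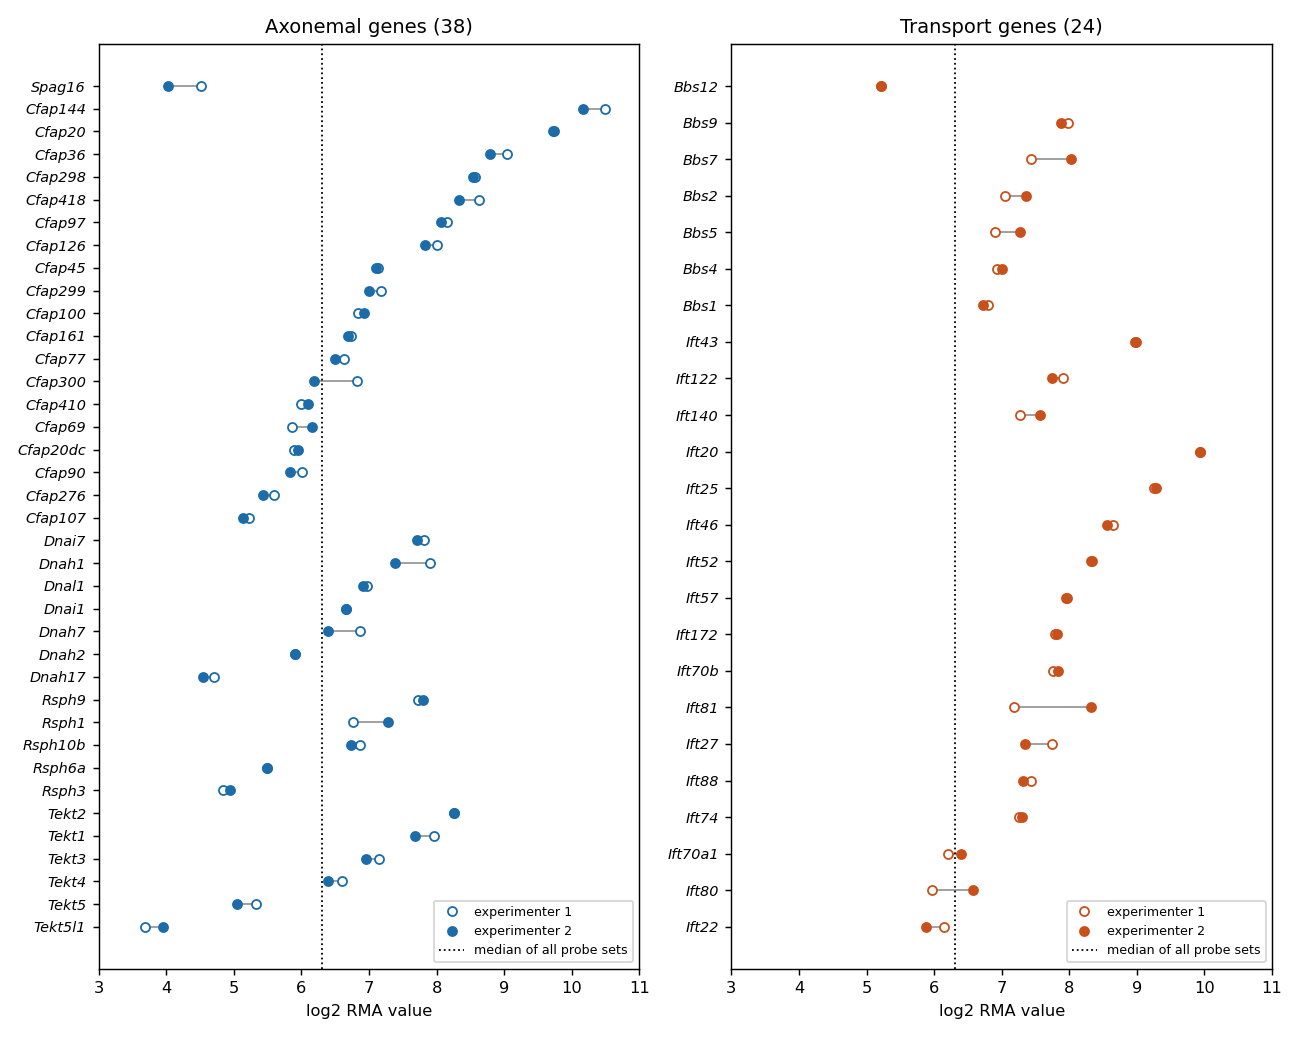
Log2 RMA value of each axonemal gene (left) and transport gene (right) by its brightest probe set, with open circles for experimenter 1, filled circles for experimenter 2 and a dotted line at 6.31, the median of all probe sets. Most pairs of circles lie close together, the longest line is that of *Ift81*, and 20 of 24 transport genes against 25 of 38 axonemal genes have means at or right of the dotted line.

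Between the arrays the axonemal genes were lower for experimenter 2 more often than all genes, by small amounts, and the transport genes less often. Of the 38 axonemal genes 28 were lower (73.7%), with a median difference of -0.097 (26 of 35 and -0.082 without *Cfap36*, *Cfap410* and *Cfap418*), while 9 of 24 transport genes were lower (37.5%), with a median of 0.023. Over all 14217 genes 58.7% were lower, with a median of -0.049 and a middle 50% from -0.20 to 0.11. When the arrays were centred on a common median, the counts lower became 22 of 38 and 7 of 24, with medians of -0.045 and 0.075, against 49.5% of all genes. A loess or quantile rescaling gave 21 and 22 of 38 and, in each case, 7 of 24. Over the 68 genes 10 turned direction under at least 1 of these rescalings, none of which differed by more than 0.052 in size. With no replicate array, none of these offsets can be set against an array-to-array error.

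The lower axonemal values were divided unevenly by level, a split for which no test can be made. At or above the median level, 21 of 25 axonemal genes were lower, with a median of -0.13, beside 59.7% of all genes of that level. Below it, 7 of 13 were lower, with a median of -0.0046, beside 56.8% of all such genes. After centring the counts were 16 of 25 and 6 of 13, beside 4741 of 9558 and 2296 of 4659 of all genes, so that the split was less uneven. Among transport genes 8 of 20 were lower at or above the median level and 1 of 4 below it.

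**Figure D2:**
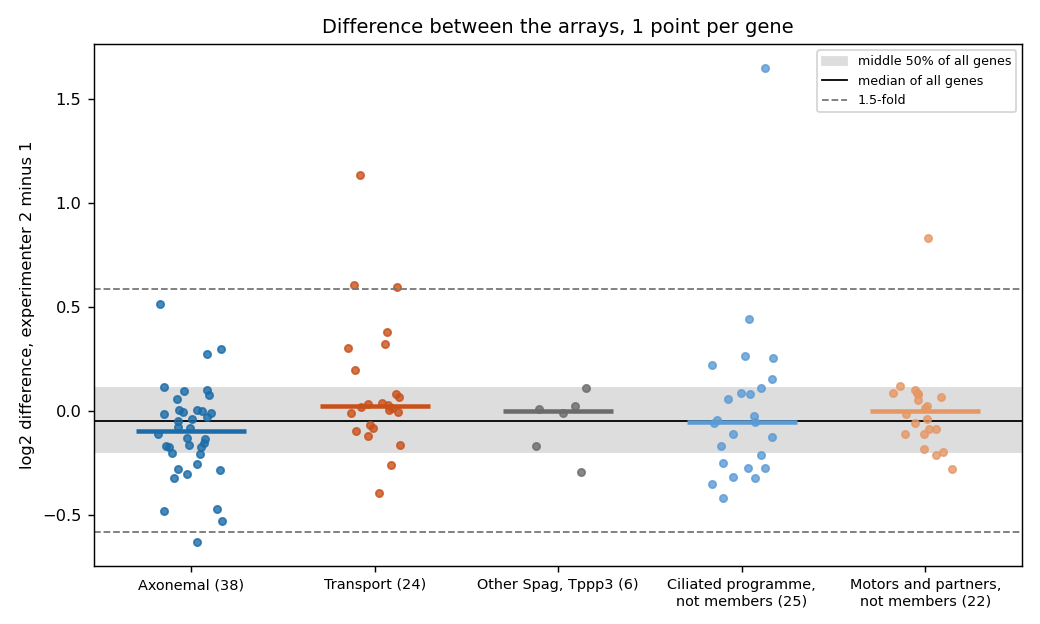
Log2 difference (experimenter 2 minus experimenter 1) of each gene by its brightest probe set, for the 3 sets of members and for 2 lists of cilium genes that are not members; thick bars are medians, the grey band is the middle 50% of all genes, the black line their median and the dashed lines 1.5-fold. The axonemal median is -0.097 and the transport median 0.023; *Ropn1l* at 1.65 is the highest point.

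Few members were far apart. A difference of at least 1.5-fold was seen for 5 of 88 member probe sets (5.68%), beside 4.35% of all probe sets. Of these, 4 of 34 were transport probe sets (3 higher for experimenter 2, beside 2.05% of all probe sets, and 1 lower, beside 2.3%) and 1 of 45 was axonemal. Only 1 probe set, of *Ift81*, was 2-fold apart, beside 0.37% of all probe sets. By the brightest probe set, the median size of the difference was 0.116 for the 68 genes, beside 0.159 for all genes.

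The dynein arm genes had a median difference of -0.11. Of these 7 genes 5 were lower for experimenter 2, beside 58.7% of all genes. The count stayed at 5 after centring and quantile rescaling, beside 49.5% and 51.7% of all genes. It was 4 after the loess rescaling, beside 49.7%. *Dnah1*, an inner arm heavy chain, measured 7.91 for experimenter 1 and 7.38 for experimenter 2, a difference of -0.53. *Dnah7*, another inner arm heavy chain, measured 6.87 and 6.39, a difference of -0.47. *Dnah2*, an inner arm heavy chain whose promoter holds the X-box shown above, was level at 5.91 and 5.91. So these inner arm chains did not share an offset on the arrays. *Dnai1*, an intermediate chain of the outer arm, also hardly differed, at 6.66 on each array. The outer arm light chain gene *Dnal1* measured 6.97 and 6.91, and *Dnai7*, named as an intermediate chain, 7.82 and 7.71. *Dnah17*, an outer arm heavy chain known from sperm flagella, was dim at 4.70 and 4.54.

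The radial spoke genes were the 1 axonemal group with a positive median, 0.074 over 5 genes. Of these, 3 were higher and 2 lower for experimenter 2, beside 58.7% of all genes lower. After each rescaling 1 of 5 was lower, beside 49.5% to 51.7% of all genes. *Rsph1*, a spoke head protein, accounted for the largest value, with 6.77 and 7.28, a difference of 0.51. *Rsph9*, another spoke head protein, measured 7.72 and 7.80 and *Rsph10b* 6.87 and 6.73. *Rsph3*, of the spoke stalk, measured 4.83 and 4.95, and *Rsph6a*, a spoke head protein of sperm, 5.49 and 5.49. Apart from *Rsph1*, each spoke gene differed by less than 0.15 in size.

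Tektins, the filament proteins inside the doublet wall, were lower for experimenter 2 in 5 of 6 genes, beside 58.7% of all genes. Their median was -0.20, and 4 of 6 were lower after each rescaling, beside 49.5% to 51.7% of all genes. *Tekt2*, the brightest, was level at 8.26 and 8.25, so that its direction turned under each rescaling of the arrays. *Tekt1* measured 7.96 and 7.68, *Tekt3* 7.15 and 6.95, *Tekt4* 6.60 and 6.39, and *Tekt5* 5.33 and 5.05. These 4 genes had like differences, between -0.29 and -0.20. *Tekt5l1*, the dimmest axonemal gene, went the other way at 3.68 and 3.95.

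Of the 19 Cfap genes 15 were lower for experimenter 2, beside 58.7% of all genes, with a median of -0.082. After each rescaling 11 of 19 were lower, beside 49.5% to 51.7% of all genes. *Cfap300*, a factor in dynein arm assembly, had the largest axonemal difference, with 6.82 and 6.19, which is 1.55-fold lower for experimenter 2. It had 1 probe set, so no second measurement of it was at hand. *Cfap144*, a protein inside the doublet and the brightest axonemal gene, measured 10.50 and 10.17, a difference of -0.33. *Cfap418*, a gene tied to photoreceptor function, measured 8.63 and 8.33. *Cfap36*, a binding partner of the GTPase Arl3, measured 9.05 and 8.79. These bright Cfap genes differed by like amounts, but others as bright did not.

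*Cfap20*, an inner junction protein of the doublet, measured 9.74 and 9.73. *Cfap298*, which takes part in dynein arm assembly, measured 8.56 and 8.55, and *Cfap97* 8.15 and 8.06. Among proteins inside the doublet, *Cfap126* measured 8.01 and 7.83, *Cfap45* 7.13 and 7.10, *Cfap161* 6.73 and 6.69, *Cfap77* 6.63 and 6.50, and *Cfap276* 5.59 and 5.43. The Cfap genes with a higher value for experimenter 2 were *Cfap69*, of the central apparatus, at 5.86 and 6.16, *Cfap410* at 5.9997 and 6.10, *Cfap100*, which modifies inner arms, at 6.83 and 6.93, and *Cfap20dc* at 5.90 and 5.95. The remaining *Cfap299*, *Cfap90* and *Cfap107* differed by -0.17, -0.18 and -0.079. *Spag16*, of the central apparatus, was dim at 4.51 and 4.03, a difference of -0.48.

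Among the transport genes, those for IFT-B made up 14 of 24 and had a median difference of 0.023. Of these, 8 were higher and 6 lower, beside 58.7% of all genes lower. After each rescaling 4 of 14 were lower, beside 49.5% to 51.7% of all genes. Several bright ones were close on the 2 arrays. *Ift20*, which works at the Golgi and in the cilium, measured 9.94 and 9.93, *Ift25* 9.25 and 9.28, *Ift52*, of the complex core, 8.34 and 8.33, and *Ift57* 7.95 and 7.97. *Ift172*, the largest IFT-B protein, measured 7.80 and 7.81, *Ift70b* 7.76 and 7.83, *Ift74* 7.25 and 7.29, *Ift46* 8.64 and 8.56 and *Ift88* 7.43 and 7.32. These 9 genes differed by at most 0.12 in size.

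The other 5 IFT-B genes were farther apart. *Ift81*, which binds tubulin together with the product of *Ift74*, measured 7.19 and 8.32, and was 2.20-fold higher for experimenter 2. *Ift80* measured 5.97 and 6.57, which is 1.52-fold higher, from 1 probe set with a mean just under the median of all probe sets. *Ift27*, a small GTPase that pairs with Ift25, was lower at 7.74 and 7.34, unlike *Ift25*. *Ift22*, a GTPase-like subunit, measured 6.14 and 5.88, and *Ift70a1* 6.21 and 6.40. The other 2 probe sets of *Ift81* were lower for experimenter 2, by -0.66 and -0.27.

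Each of the 3 IFT-A genes within the name rule lay above the median level by its brightest probe set. The second probe set of *Ift122* lay below it, at 4.38 and 4.26. IFT-A genes with other names are not counted here. *Ift43* measured 8.97 and 8.98, *Ift122* 7.90 and 7.74, and *Ift140*, whose window holds an X-box match, 7.27 and 7.57.

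Of the 6 genes for BBSome subunits 4 were higher for experimenter 2, beside 41.1% of all genes, with a median of 0.20 (0.24 to 0.26 after rescaling), the highest of any group of members with at least 3 genes. *Bbs7* measured 7.43 and 8.03, which is 1.51-fold higher. *Bbs5* measured 6.90 and 7.27, *Bbs2* 7.04 and 7.36, and *Bbs4* 6.92 and 7.004. The lower ones were *Bbs9* at 7.98 and 7.88 and *Bbs1* at 6.80 and 6.73. *Bbs12*, a chaperonin-like protein that helps assemble the BBSome, was level at 5.21 and 5.21. The BBSome subunit *Ttc8* (also called Bbs8), whose symbol is outside the name rule, measured 5.87 and 6.70, a difference of 0.83, from 1 probe set, and *Bbip1*, a small subunit also outside the rule, 9.14 and 9.08, a difference of -0.058.

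The 6 genes outside both classes were named for their history more than for a place in the axoneme. *Tppp3*, a tubulin-binding protein abundant in ciliated cells, was the brightest member, at 12.22 and 12.05. *Spag9*, a scaffold of kinase signalling and motor binding, measured 10.75 and 10.77, and *Spag7* 8.95 and 8.94. *Spag4*, a nuclear envelope protein of spermatids, *Spag5*, the spindle protein astrin, and *Spag11a*, an epididymal defensin-like protein, were dim, at 4.70 and 4.81, 4.47 and 4.48, and 3.98 and 3.68.

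Agreement between probe sets of 1 gene could be read for 15 member genes. The brightest and the second brightest probe set differed in the same direction for 11 of 15 (73.3%), beside 53.3% of the 4525 genes with at least 2 probe sets. By class it was 5 of 6 axonemal genes, 6 of 8 transport genes and 0 of 1 others. Over every pair of probe sets the members were at the background, with 14 of 26 pairs in the same direction (53.8%) beside 52.6% of 9597 pairs. The gap between these 2 differences had a median of 0.071 for axonemal genes, 0.30 for transport genes and 0.25 for all genes. These medians rest on 6 and 8 member genes.

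**Figure D3:**
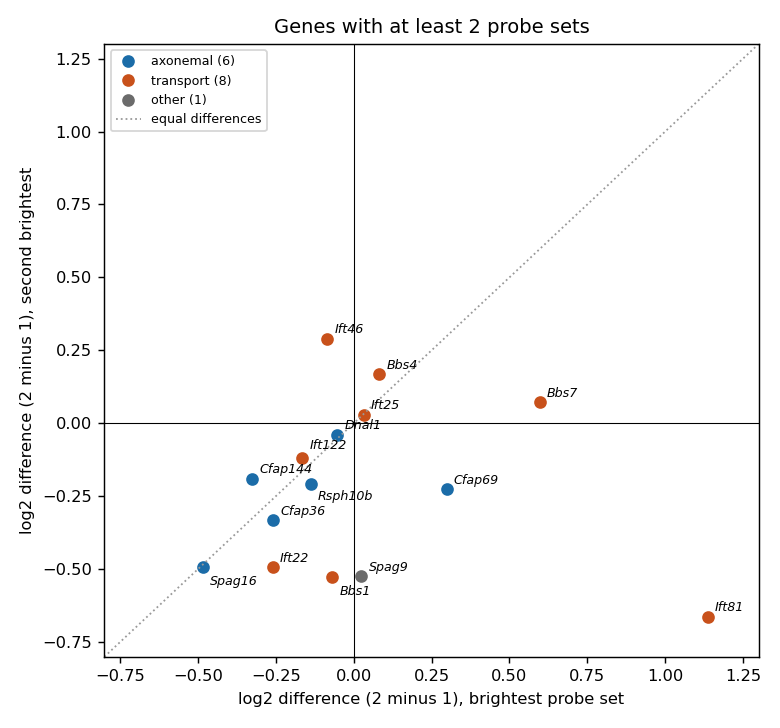
Log2 difference (experimenter 2 minus experimenter 1) of the second brightest probe set against that of the brightest for the 15 member genes with at least 2 probe sets, 6 axonemal, 8 transport and 1 other; the dotted line marks equal differences. *Ift81* stands lowest and farthest right, at 1.14 and -0.66, while 5 of 6 axonemal genes lie where both probe sets were lower.

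The axonemal genes with several probe sets mostly repeated their small differences. Those of *Spag16* differed by -0.48 and -0.49, those of *Cfap36* by -0.26 and -0.33, those of *Cfap144* by -0.33 and -0.19, and those of *Rsph10b* by -0.14 and -0.21. The 2 *Spag16* differences were alike, but both probe sets were far below the median level, at percentiles 23.3 and 4.0 of all probe sets. Probe sets read on the same 2 arrays are not independent repeats. *Dnal1* differed by -0.052 and -0.038 in its brighter probe sets and by 0.16 in the dimmest. *Cfap69* was the exception, with 0.30 and -0.22 from probe sets of nearly equal level.

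Among transport genes the largest disagreement was that of *Ift81*. Its 3 probe sets measured 7.19 and 8.32 (1394038_at), 6.27 and 5.61 (1395387_at), and 4.21 and 3.94 (1396766_at), so that the brightest was 2.20-fold higher and the others lower for experimenter 2. The brightest and the second brightest thus lay 1.80 apart in their differences, the largest gap among the 15 genes. *Bbs7* differed by 0.60 in its brightest and 0.073 in the second, and *Bbs1* by -0.069 and -0.53. *Ift46* turned direction, with -0.085 and 0.29. In contrast *Ift25* gave 0.032 and 0.030 in its 2 brighter probe sets, *Ift122* -0.17 and -0.12, *Bbs4* 0.081 and 0.17, and *Ift22* -0.26 and -0.49. The second *Ift22* probe set is of a type whose probes can match several transcripts.

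*Spag9* had 4 probe sets. They measured 10.75 and 10.77, 8.87 and 8.35, 6.75 and 6.92, and 5.82 and 5.61, so that 2 were higher and 2 lower for experimenter 2.

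**Figure D4:**
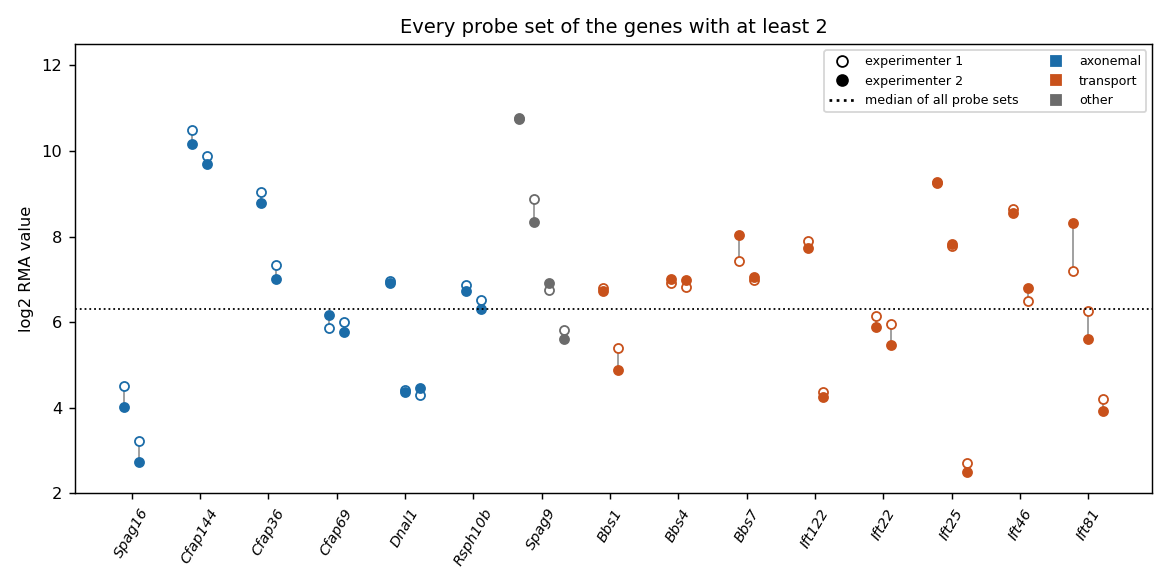
Log2 RMA values of every probe set of the 15 member genes with at least 2, ordered by level within a gene; open circles are experimenter 1, filled circles experimenter 2, colours the classes and the dotted line the median of all probe sets, 6.31. Probe sets of 1 gene often lie several log2 units apart, as for *Ift25*, from 9.25 to 2.70 for experimenter 1, and only *Ift81* has a brightest probe set 2-fold apart.

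Cilium genes outside the name rule were read from lists of known genes. Of the regulators and assembly factors of ciliated cells, 25 were measured and 15 were lower for experimenter 2, beside 58.7% of all genes. The count was 13 to 15 after rescaling, beside 49.5% to 51.7% of all genes. Their median was -0.055, near the -0.049 of all genes. *Foxj1*, the master regulator of motile cilia, measured 8.15 and 8.30, *Rfx2* 7.01 and 7.09, *Rfx3* 6.34 and 6.79, and *Myb* 7.95 and 8.07. Each of these named regulators was higher for experimenter 2, unlike most of the list, but they were named after their values were seen. Among dim genes of the list, *Gmnc* was higher at 3.84 and 4.09 and *Ccno* lower at 4.33 and 4.12. *Dnaaf5* at 8.60 and 8.35 and *Lrrc23* at 8.18 and 7.91, among the brightest of the list, were lower. *Tubb4b*, a tubulin of axonemes, measured 11.54 and 11.52, and *Dynlrb2*, a dynein light chain, 9.74 and 9.80. The largest difference was that of *Ropn1l*, a radial spoke protein related to ropporin, at 4.60 and 6.25 from 1 probe set, a difference of 1.65. The most negative differences were those of *Odad3*, of the outer arm docking complex, with -0.42 and *Deup1*, of centriole amplification, with -0.36.

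Of the motors and partners of transport 22 were measured, with 11 higher and 11 lower, beside 58.7% of all genes lower. Their median of -0.0021 turned to between 0.034 and 0.053 after rescaling. The brightest were *Bbip1* and *Mkks*, a chaperonin-like Bbs protein, the latter at 9.11 and 8.91. *Kifap3* and *Kif3b*, of the kinesin that drives IFT, measured 8.94 and 8.85, and 8.45 and 8.23. *Dync2h1*, the heavy chain of the return motor, measured 7.68 and 7.57. *Ttc8* was the 1 gene of this list past 1.5-fold, beside 3.24% of all genes.

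Marker genes of lung and other cells were read beside the members. The 12 ciliated cell markers measured that are not members also belong to the list of 25 above. Of these, 7 were at or above the median level, beside 67.2% of all genes. For experimenter 2, 7 of 12 were lower (58.3%), beside 58.7% of all genes. Their median was -0.14, with differences from -0.36 to 1.65. Male germ cell genes, checked because sperm flagella share the axoneme, had 1 of 11 at or above the median level, beside 67.2% of all genes. It was *Odf2*, also a centriole protein, at 9.36 and 8.96. Of the others, *Gsg1* was the brightest at 6.02 and 5.68. The sperm protamine genes *Prm2* and *Prm1* measured 4.72 and 4.82, and 3.36 and 3.11. Club cell markers had 3 of 4 lower (median -0.11), alveolar type 2 markers 4 of 5 (median -0.066), endothelial markers 1 of 2 and macrophage markers 2 of 2, beside 58.7% of all genes. After centring alveolar type 2 markers had 3 of 5 lower and macrophage markers 1 of 2, beside 49.5% of all genes. Loess rescaling left 4 of 5 and 2 of 2 lower, beside 49.7%. Quantile rescaling left 4 of 5 and 1 of 2 lower, beside 51.7%. The part of cell makeup in the differences of the members was not tested.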

How the data were processed

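The deposited values are log2 values made by the authors with RMA, per the submitters' processing notes; its version, annotation and set of arrays are not given in the sources at hand, and base 2 was taken from the range of the values. RMA equalizes arrays at the level of probes, so that the summarised columns can still differ, and gives no detection calls. Of 31042 probe sets besides 57 controls, 20826 had 1 symbol, 436 had several and 9780 had none. Entrez identifiers matched the RefSeq gene table of GRCr8 for all 88 members, and no filter on level was applied to them. The brightest probe set by mean value stood for a gene. Fold thresholds of 1.5 and 2 served as rules of size, since 1 array per experimenter allows no test and the number of arrays limits the precision. Members and gene lists were chosen with earlier results of these data known. All members may be named; genes of other lists were named as the brightest or farthest apart, and the regulators and motors also by role after their values were seen. Sequences came from RefSeq (GRCr8). Computations used Python 3.11.15, numpy 2.4.6, pandas 2.3.3, scipy 1.17.1, statsmodels 0.14.6 and matplotlib 3.10.9, and were tested on simulated data. Alternatives were rescaling, the choice of probe set, a filter on level, symbols and class membership.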

Additional observations from a re-analysis of the deposited data

How the results depend on the processing

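No paired analysis was possible because there was a single array per experimenter, and leaving an array out was likewise impossible. Centring, removal of a loess trend (fraction 0.3) and quantile normalization of the 2 columns kept the sign of both class medians (axonemal -0.056 to -0.042, transport 0.064 to 0.079), as did leaving out Cfap and Spag genes (-0.082) or Bbs genes (0.020). The second brightest probe sets, which exist for 6 axonemal and 8 transport genes, gave -0.22 and turned the transport median to -0.044. Class levels (means over both arrays) of 6.76 and 7.64 became 6.64 and 7.32 when a gene's probe sets were averaged, 6.16 and 6.29 by the second brightest, and 7.11 and 7.78 when probe sets under the median level were left out, where fewer genes remain. The 5 probe sets past 1.5-fold became 3 without those under the median level and 1 at 2-fold, and 4 after centring or loess. Agreement between probe sets went from 73.3% to 66.7% of 15 genes after centring or quantile normalization. Leaving out 3 Cfap genes was chosen after seeing the data. Current symbols changed no value. Dim members are limited by signal, since no detection calls were used.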
